A study of Mus musculus with 9 samples.

Results

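The S100 proteins examined here are encoded by the genes S100a4, S100a6, S100a8, S100a9 and S100a10, chosen by gene symbol and not by any measured value. They are 5 of 8251 genes that the platform annotation ties to a probe set of its own, a probe set being the group of short probes that reads 1 transcript. The 5 genes have 6 probe sets among 12488, since S100a10 has 2, and all 6 passed the filter on low signals described below. The samples are splenic cells of female mice (8 to 12 weeks old) sorted for CD11b, the alpha M integrin found on granulocytes, monocytes, macrophages and several further leukocyte types. They were profiled on 9 MG-U74Av2 oligonucleotide arrays made by Affymetrix, in 3 groups of 3. The first group held cells of tumor-bearing mice kept for 24 h in complete medium ("cultured"), the second held cells of tumor-bearing mice at time 0 ("fresh"), and the third held cells of tumor-free mice ("tumor-free"). The labels name no tumor, mouse strain or genotype, and tumor-free cells were not cultured. In the comparison of cultured with tumor-free cells, the tumor and the culture therefore cannot be told apart. Whether replicates are separate mice is not stated, so each p-value speaks only to the spread among these arrays, and that spread may be technical.

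S100 proteins are small cytosolic proteins that mostly work as dimers and carry a pair of EF hands, the helix-loop-helix motif that binds calcium. Calcium binding exposes a surface through which most of them grip a target protein. S100a8 and S100a9, the calgranulins, pair to form calprotectin, a major cytosolic protein of neutrophils and of many monocytes that binds calcium and zinc and is released in inflammation. S100a4 binds the heavy chain of non-muscle myosin and is known from motile cells, fibroblasts and some leukocytes. S100a6, or calcyclin, is found in proliferating and stromal cells. S100a10 has lost the ability to bind calcium and sits as a light chain on annexin Anxa2 at membranes. In mouse spleen, S100a8 and S100a9 are known as markers of the immature CD11b+ cells that accumulate in animals with tumors.

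All 5 genes lie on chromosome 3 in the RefSeq annotation of GRCm38.p6, with gene IDs 20198 (S100a4), 20200 (S100a6), 20201 (S100a8), 20202 (S100a9) and 20194 (S100a10). S100a8 is the direct neighbour of S100a9, S100a4 lies between S100a2 and S100a5, S100a6 lies between S100a5 and S100a7a, and S100a10 lies between S100a11 and Tdpoz2. The promoters of S100a8 and S100a9 are shown because their signals moved together from array to array, and that of S100a4 because it was the S100 gene that passed the test below. Each runs 5′ to 3′ along the gene from 250 bases before the transcription start to 50 bases from it (RefSeq, GRCm38.p6), counted from 1 at the start and downward from -1 before it. Capitals mark matches on either strand to 3 motifs chosen after the sequences had been seen: TATAAA (the TATA box), GAGGAA (an ETS core of the kind bound by the myeloid factor PU.1, reading TTCCTC on the other strand) and GCAAT (a half-site of C/EBP factors, reading ATTGC on the other strand).
S100a8, chr3:90668821-90669120, + strand: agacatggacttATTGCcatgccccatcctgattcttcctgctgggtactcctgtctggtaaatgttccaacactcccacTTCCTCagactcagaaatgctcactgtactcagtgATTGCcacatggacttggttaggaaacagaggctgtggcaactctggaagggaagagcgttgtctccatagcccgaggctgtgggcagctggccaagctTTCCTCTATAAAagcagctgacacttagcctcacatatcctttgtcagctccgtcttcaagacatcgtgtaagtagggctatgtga
S100a9, chr3:90695672-90695971, − strand: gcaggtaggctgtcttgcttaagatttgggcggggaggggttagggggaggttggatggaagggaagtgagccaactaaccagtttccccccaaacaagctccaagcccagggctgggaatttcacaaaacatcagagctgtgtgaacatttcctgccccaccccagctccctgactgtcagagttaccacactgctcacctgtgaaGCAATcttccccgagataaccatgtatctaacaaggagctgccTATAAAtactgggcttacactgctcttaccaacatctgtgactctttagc
S100a4, chr3:90603520-90603819, + strand: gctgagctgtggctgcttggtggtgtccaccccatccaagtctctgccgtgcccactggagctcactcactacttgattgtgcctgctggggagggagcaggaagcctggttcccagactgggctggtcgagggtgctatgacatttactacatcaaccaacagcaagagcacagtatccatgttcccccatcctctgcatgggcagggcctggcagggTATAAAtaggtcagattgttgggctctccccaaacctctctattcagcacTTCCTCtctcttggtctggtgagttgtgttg

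The S100a8 promoter held TATAAA from -30 to -25, GAGGAA from -36 to -31 and again from -170 to -165, and GCAAT from -135 to -131 and from -238 to -234, the last 4 all on the strand against the gene. None of these matches overlaps another, but the GAGGAA match at -36 directly adjoins the TATA box. The S100a9 window held TATAAA from 1 to 6 after the annotated start and GCAAT from -43 to -39, both with the gene. The S100a4 window held TATAAA from -31 to -26 and GAGGAA against the gene from 20 to 25. The S100a6 window, chr3:90612644-90612943, held 0 matches to the 3 motifs. Among 32851 RefSeq promoter windows of 300 bases, 13.6% held TATAAA, 28.3% held GAGGAA and 26.4% held GCAAT on either strand. A match of letters describes the sequence and does not show that a factor binds there.

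Signals are the MAS5 values the authors deposited, on a linear scale and scaled to a common level on every array. Fold changes are differences of log2(signal + 7.83), which understates the change of dim genes, and a gene was called when its limma p-value, adjusted by the Benjamini-Hochberg method over 8695 probe sets, was below 0.05. Every group had 1 array that differed from a closely similar pair. These were cultured 3, fresh 3 and tumor-free 1, whose lowest correlations with their own group over all tested probe sets were 0.850, 0.874 and 0.823, whereas the pairs correlated at 0.929, 0.949 and 0.957. The arrays were cut by their mean log2 bacterial spike-in signal into a high class (cultured 1 and 2, fresh 1 and 2, tumor-free 1) and a low class (cultured 3, fresh 3, tumor-free 2 and 3). The cut falls in no clear gap: the low class spans 6.63 and 6.81 on cultured 3 and fresh 3 and 7.53 and 7.46 on tumor-free 2 and 3, which lie closer to fresh 1 and 2 (7.65 and 7.77) in the high class. The classes were defined from the data, and no label names a batch. In every group, the array that differed from the pair lay in the other class. Values within each class are given beside the pooled ones. Each class holds 1 or 2 arrays per group, so these are values with no test. The actin 3'/5' signal ratio rises as RNA breaks down. It was 1.16 to 2.40 on cultured, 1.35 to 1.60 on fresh and 0.996 to 2.59 on tumor-free arrays. By class it was 1.59 to 2.59 on the high and 0.996 to 1.35 on the low arrays, so class and ratio cannot be told apart. Itgam, which encodes CD11b, had signals of 333 to 954 on cultured, 392 to 585 on fresh and 244 to 373 on tumor-free arrays, so the marker used for sorting gave a signal in all 3 groups.

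S100a4 was the lowest in cultured cells, intermediate in fresh cells and the highest in tumor-free cells, with no overlap between any 2 groups. Its signals were 155, 438 and 167 on cultured 1, 2 and 3, against 747, 654 and 576 on the fresh arrays and 1218, 1476 and 1357 on the tumor-free arrays. Each cultured array thus lay below each fresh array, and each fresh array below each tumor-free array, although cultured 2 lay nearer to the fresh cells than the other cultured arrays did. The group means were 253 ± 160 in cultured, 659 ± 85.9 in fresh and 1350 ± 129 in tumor-free cells (SD, n = 3 each). S100a4 fell in cultured relative to tumor-free cells, with a log2 fold change of -2.54 ± 0.36 (SE, limma adjusted p = 0.00861), which is 0.172 times the tumor-free level with a 95% interval of 0.0998 to 0.298. In a fit to these 2 groups alone the adjusted p was 0.0668, and over all the alternatives with a test it ranged from 0.00124 to 0.0668. The array is a bulk measurement, so fewer cells of a type and less RNA per cell cannot be told apart.

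The other comparisons of S100a4 had the same direction and did not pass the test. For cultured over fresh cells the log2 fold change was -1.51 ± 0.36 (SE, limma adjusted p = 0.0513, 95% interval -2.30 to -0.72). It did pass without cultured 2, at a log2 fold change of -1.97 (limma adjusted p = 0.00940), and without tumor-free 1, which enters only through the shared spread (adjusted p = 0.0327), and when the spike-in class entered as a block (adjusted p = 0.0325); over all alternatives with a test its adjusted p ranged from 0.00791 to 0.181. For fresh over tumor-free cells the log2 fold change was -1.03 ± 0.36 (SE, limma adjusted p = 0.179, 95% interval -1.82 to -0.24). The 3 comparisons share arrays and are not independent of each other. The direction was the same within both spike-in classes. Within the high class the log2 differences were -2.18 for cultured over tumor-free, -1.39 for cultured over fresh and -0.79 for fresh over tumor-free cells, and within the low class they were -3.03, -1.74 and -1.29.

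Some markers of other cell states moved with S100a4 and others did not. Of 9 macrophage markers on the array, 8 passed the filter and 4 were called lower in cultured than in tumor-free cells, Mrc1 (a mannose receptor, log2 fold change -4.09), C1qa (-3.78) and C1qb (-3.64), which encode complement chains made by tissue macrophages, among them. In fresh over tumor-free cells 4 were called lower, C1qa at -2.99, C1qb at -2.91, Mrc1 at -1.80 and Hmox1, a heme-degrading enzyme, at -1.78. In cultured over fresh cells Mrc1 was called lower (-2.29, limma adjusted p = 0.0121) and Hmox1 higher (1.71, adjusted p = 0.0232). Hmox1 was not called in cultured over tumor-free cells, at -0.065. The summed macrophage signal was 2947 to 3745 on cultured, 1521 to 1823 on fresh and 3656 to 13015 on tumor-free arrays. This sum did not follow the order of S100a4, but on cultured 1, 2 and 3 Hmox1 alone read 2606, 3273 and 2662. Named after their values were seen, C1qa, C1qb, C1qc, Mrc1 and Vcam1 had group means in the order of S100a4, and Adgre1, Cd5l and Hmox1 did not. Within the tumor-free group these markers spread far more than S100a4. On tumor-free 1, 2 and 3 C1qa read 380, 2019 and 2426, and Mrc1 read 861, 322 and 365. Vcam1 read 55.2, 1975 and 2316 there, so that tumor-free 1 lay among the cultured arrays (41.7 to 56.0). C1qb and C1qc were also lowest of their group on tumor-free 1. Mature neutrophil markers divided: of 4 measured, the receptor genes Csf3r (log2 fold change -1.79) and Cxcr2 (-2.28) were called lower in cultured than in tumor-free cells, while Il1r2 and Ly6g were not called. Both receptor genes were also called lower in fresh than in tumor-free cells, Csf3r at -1.31 (limma adjusted p = 0.0413) and Cxcr2 at -1.72 (adjusted p = 0.0385), and 0 of the 4 were called in cultured over fresh cells. Their summed signal was 676 to 4448 on cultured, 3561 to 4918 on fresh and 2599 to 7088 on tumor-free arrays. Of 4 monocyte markers 0 were called in any comparison by limma, at unadjusted p below 0.05 for 1 in cultured over tumor-free, 0 in cultured over fresh and 2 in fresh over tumor-free cells; their sum was 1923 to 3805, 1184 to 1829 and 1987 to 3893 on cultured, fresh and tumor-free arrays. Over the 9 arrays, which share their scaling and group structure, the correlation with S100a4 differed widely within each list. It ran from -0.011 for Hmox1 to 0.868 for Mrc1 among the macrophage genes that passed the filter, with C1qb at 0.810. Among monocyte genes it ran from 0.020 for Csf1r to 0.897 for Ccr2, a chemokine receptor of inflammatory monocytes, and among mature neutrophil genes from -0.428 for Ly6g to 0.771 for Csf3r. Of 3 fibroblast markers, cells in which S100a4 is also known, 0 were called by limma in any comparison and 0 had an unadjusted p below 0.05; their sum was 482 to 573 on cultured, 558 to 1067 on fresh and 482 to 1065 on tumor-free arrays. Markers of B, T and NK cells, platelets and red cells gave 0 calls in any comparison, with unadjusted p below 0.05 for 2 erythroid genes in fresh over tumor-free and for 1 erythroid and 1 T cell gene in cultured over fresh cells. Whether any of these markers has a part in the S100a4 result was not tested.

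**Figure D1:**
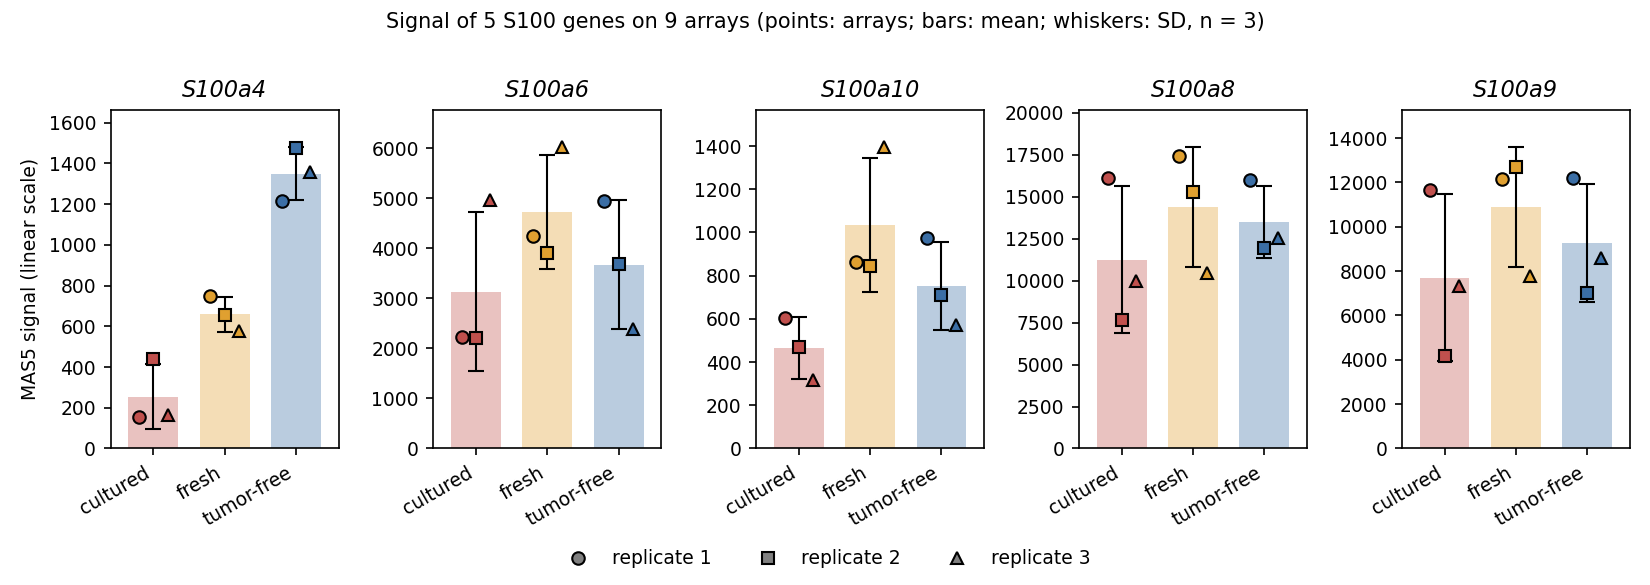
MAS5 signal (vertical axis, linear, its own scale for each gene) of the 5 S100 genes on 9 arrays, by group from cultured through fresh to tumor-free. Points are arrays, bars are means and whiskers are SD (n = 3); the S100a4 points of the 3 groups are separate, at 155 to 438, 576 to 747 and 1218 to 1476, while the groups of S100a6, S100a8 and S100a9 overlap.

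S100a10, the light chain of the Anxa2 complex, had its highest signals in fresh cells. The brighter of its probe sets read 604, 469 and 318 on cultured 1, 2 and 3, against 864, 845 and 1395 on the fresh arrays and 973, 712 and 573 on the tumor-free arrays. All cultured arrays lay below all fresh arrays, fresh 3 stood out as high, and the tumor-free arrays overlapped both other groups. The group means were 464 ± 143 in cultured, 1035 ± 312 in fresh and 753 ± 203 in tumor-free cells (SD, n = 3 each). The log2 fold change of cultured over fresh cells was -1.15 ± 0.32 (SE, limma adjusted p = 0.0904, 95% interval -1.86 to -0.44), short of the threshold. Without tumor-free 1 it was called (limma adjusted p = 0.0475), and over all alternatives with a test the adjusted p ranged from 0.0129 to 0.229. The log2 fold change was 0.45 ± 0.32 for fresh over tumor-free (SE, limma adjusted p = 0.498, 95% interval -0.26 to 1.16) and -0.70 ± 0.32 for cultured over tumor-free cells (adjusted p = 0.362, interval -1.42 to 0.010).

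Within the spike-in classes, where some groups hold a single array, the S100a10 values were these. Cultured over fresh gave -0.68 within the high and -2.10 within the low class, cultured over tumor-free gave -0.86 and -0.99, and fresh over tumor-free gave -0.19 and 1.12, a difference in sign that was not tested. The second S100a10 probe set was dimmer, at 46.1 to 56.0 on cultured, 52.1 to 81.0 on fresh and 41.5 to 67.2 on tumor-free arrays. Its log2 fold change was -0.35 ± 0.28 for cultured over fresh (SE, limma adjusted p = 0.612), 0.40 ± 0.28 for fresh over tumor-free (adjusted p = 0.487) and 0.051 ± 0.28 for cultured over tumor-free cells (adjusted p = 0.961). In the fit to all 9 arrays the probe sets thus had the same sign in the comparisons with fresh cells. Between cultured and tumor-free cells their signs differed. Within the spike-in classes the signs also differed for fresh over tumor-free, where the dimmer probe set gave 0.77 within the high and -0.025 within the low class. For cultured over fresh its values within the classes were both negative, at -0.52 and -0.014. Genes of the exocrine pancreas also stood highest in fresh cells: the summed signal of 4 such markers was 227 to 638 on cultured, 7556 to 12295 on fresh and 206 to 228 on tumor-free arrays, and all 4 were called higher in fresh than in tumor-free and lower in cultured than in fresh cells. Their correlation with S100a10 over the 9 arrays ran from 0.566 for Reg1 to 0.713 for Prss2, and their part in its level was not tested.

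Known binding partners of S100a10 correlated with its brighter probe set, though not in every group and not with S100a10 alone. Anxa2, the annexin that S100a10 joins in a tetramer, read 1725, 1376 and 1751 on the cultured, 2548, 2423 and 3619 on the fresh and 2562, 2035 and 1503 on the tumor-free arrays. Ahnak, a very large scaffold protein that the Anxa2 complex anchors at the membrane, read 609, 1244 and 337 on the cultured, 1357, 1411 and 3023 on the fresh and 788, 1353 and 925 on the tumor-free arrays. Fresh 3 was the highest array for S100a10, Anxa2 and Ahnak alike. The correlation with S100a10 over the 9 arrays was r = 0.859 for Anxa2 and 0.784 for Ahnak. With S100a6 it was 0.825 for Anxa2 and 0.210 for Ahnak. The arrays share scaling and 3 groups, and these are descriptions. For cultured over fresh cells the log2 fold change was -0.81 for Anxa2 (limma adjusted p = 0.185) and -1.49 for Ahnak (adjusted p = 0.134), neither called.

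**Figure D2:**
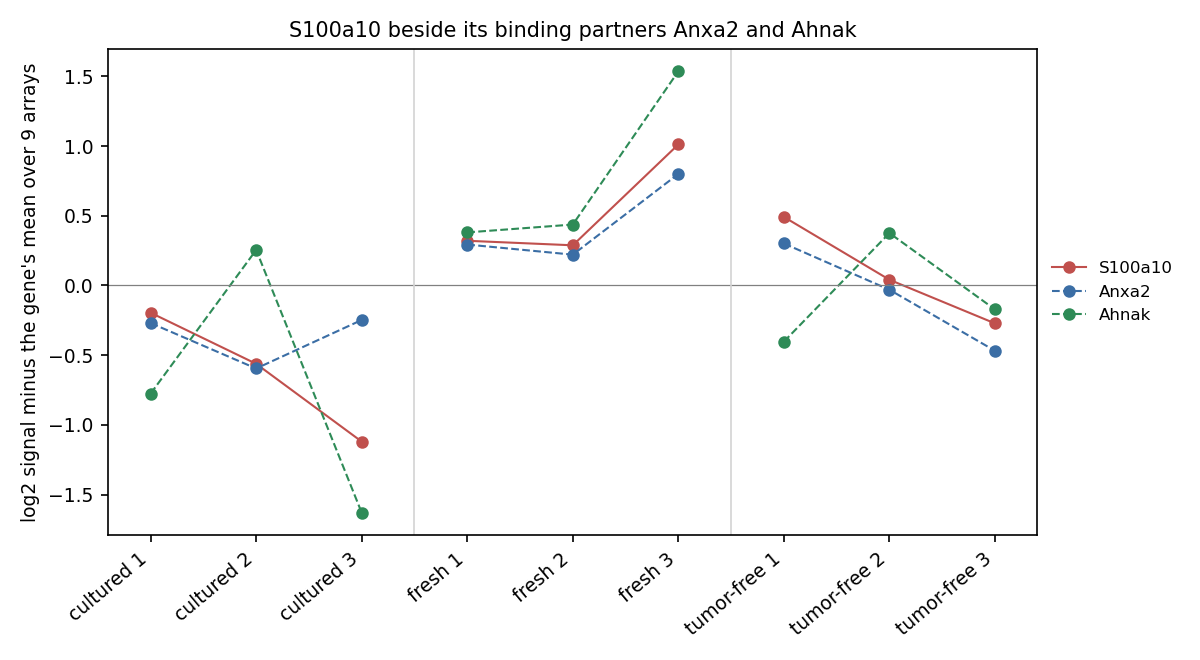
Log2 signal of S100a10, Anxa2 and Ahnak on each array, as the difference from that gene's mean over 9 arrays (vertical axis, log2 units), with arrays from cultured through fresh to tumor-free along the horizontal axis. All 3 genes were highest on fresh 3, and S100a10 and Anxa2 lay below their means on all cultured arrays.

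S100a6 did not separate the groups. Its signals were 2223, 2200 and 4969 on cultured 1, 2 and 3, against 4244, 3906 and 6021 on the fresh arrays and 4954, 3682 and 2386 on the tumor-free arrays. The third array of cultured and of fresh cells was the highest of its group, the third of tumor-free cells the lowest, and the groups overlapped in all 3 comparisons. Means were 3131 ± 1592 in cultured, 4724 ± 1136 in fresh and 3674 ± 1284 in tumor-free cells (SD, n = 3 each). The log2 fold change was -0.68 ± 0.40 for cultured over fresh (SE, limma adjusted p = 0.451, 95% interval -1.56 to 0.20). It was 0.40 ± 0.40 for fresh over tumor-free (adjusted p = 0.634, interval -0.48 to 1.28) and -0.28 ± 0.40 for cultured over tumor-free cells (adjusted p = 0.812, interval -1.16 to 0.60). The intervals thus leave room for changes of more than 1 log2 unit in each comparison.

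Within the spike-in classes S100a6 took opposite signs. Cultured over tumor-free gave -1.16 within the high and 0.74 within the low class, and fresh over tumor-free gave -0.28 and 1.02. Cultured over fresh was negative in both, at -0.88 and -0.28. Among the S100a6 binding proteins, Cacybp, the calcyclin-binding protein of a ubiquitin ligase, averaged 62.7 in cultured, 33.8 in fresh and 45.4 in tumor-free cells. Sugt1, a co-chaperone that S100a6 also binds, averaged 632 in cultured, 295 in fresh and 332 in tumor-free cells, with a log2 fold change of 1.10 for cultured over fresh (limma adjusted p = 0.102). A second Sugt1 probe set was called higher in cultured than in fresh cells (1.31, limma adjusted p = 0.0415). Csf1r, the growth factor receptor of monocytes and macrophages, ran against S100a6 over the 9 arrays at r = -0.942, noticed after the values were seen, and was not called in any comparison.

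S100a8 and S100a9, the calprotectin genes, overlapped between all groups and were not called in any comparison. S100a8 read 16092, 7642 and 9993 on cultured 1, 2 and 3, against 17393, 15290 and 10442 on the fresh arrays and 15965, 11943 and 12560 on the tumor-free arrays. S100a9 read 11644, 4167 and 7321 on the cultured, 12162, 12715 and 7781 on the fresh and 12182, 6991 and 8593 on the tumor-free arrays. Cultured 2 was the lowest array for both genes, and cultured 1, fresh 1, fresh 2 and tumor-free 1, all of the high spike-in class to which cultured 2 also belongs, were the 4 highest for both.

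Mean S100a8 signals were 11242 ± 4362 in cultured, 14375 ± 3564 in fresh and 13489 ± 2166 in tumor-free cells (SD, n = 3 each). Its log2 fold change was 0.071 ± 0.38 for fresh over tumor-free (SE, limma adjusted p = 0.940, 95% interval -0.76 to 0.90), -0.39 ± 0.38 for cultured over fresh (adjusted p = 0.684, interval -1.22 to 0.44) and -0.32 ± 0.38 for cultured over tumor-free cells (adjusted p = 0.756, interval -1.15 to 0.51). Mean S100a9 signals were 7711 ± 3753 in cultured, 10886 ± 2703 in fresh and 9255 ± 2658 in tumor-free cells (SD, n = 3 each). Its log2 fold change was 0.24 ± 0.42 for fresh over tumor-free (SE, limma adjusted p = 0.805, interval -0.70 to 1.17), -0.59 ± 0.42 for cultured over fresh (adjusted p = 0.560, interval -1.52 to 0.35) and -0.35 ± 0.42 for cultured over tumor-free cells (adjusted p = 0.769, interval -1.28 to 0.59). The intervals leave room for changes past 1 log2 unit, reaching -1.22 for S100a8 and -1.52 for S100a9. Within the high and the low class the cultured over fresh values were -0.56 and -0.063 for S100a8 and -0.84 and -0.088 for S100a9. For cultured over tumor-free they were -0.53 and -0.29 for S100a8 and -0.81 and -0.082 for S100a9, and for fresh over tumor-free they were 0.031 and -0.23 for S100a8 and 0.030 and 0.0056 for S100a9.

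Both probe sets read at the top of the signal scale, where an array responds least to further RNA. S100a8 had the highest signal of all probe sets other than controls on 8 of 9 arrays and was 16th on cultured 2. S100a9 was among the 10 highest on 7 of 9 arrays, and 12th on tumor-free 2 and 45th on cultured 2. Whether the probes were saturated was not tested, and the level of one probe set is not a measure against that of another.

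The calprotectin genes varied together. Over the 9 arrays the log2 signals of S100a8 and S100a9 correlated at r = 0.958, and after each group's mean was taken off at 0.956, so it did not rest on differences between the group means. Taking off group means leaves any difference between the spike-in classes in place. Of the 7700 probe sets searched for each gene, S100a9 was the most like S100a8 and S100a8 the most like S100a9. Dim probe sets came close behind, Smcp at 0.933 for S100a8 and Krt20 at 0.947 for S100a9. The other 9 pairs of the 5 genes correlated at between 0.0836 for S100a4 with S100a9 and 0.496 for S100a4 with S100a10. These correlations describe 9 arrays that share scaling, and within groups S100a4 and S100a9 had r = -0.699.

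**Figure D3:**
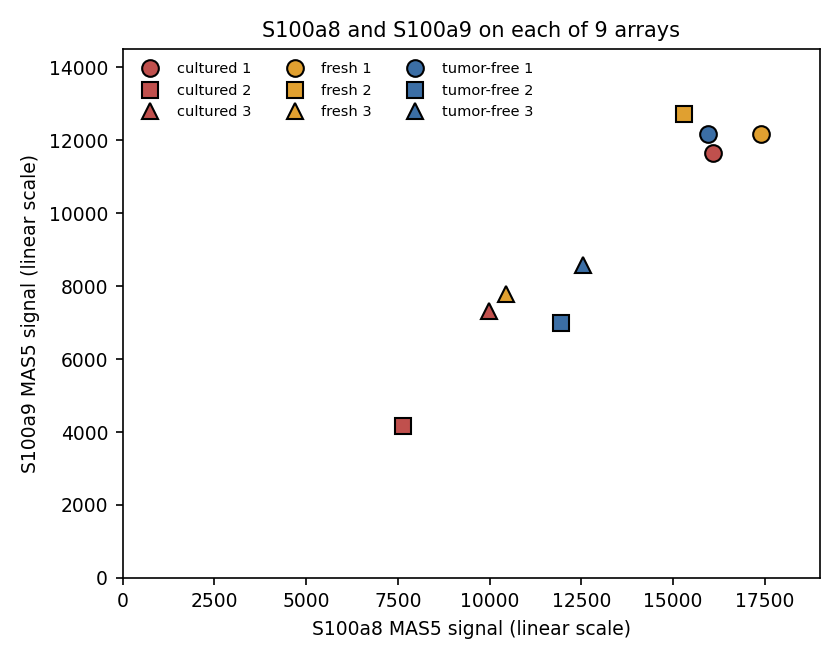
S100a9 signal (vertical axis, MAS5, linear) against S100a8 signal (horizontal axis, MAS5, linear), 1 point per array, coloured by group with the symbol giving the replicate. The points follow 1 line (r = 0.958 on the log2 scale over 9 arrays), cultured 2 is lowest on both axes, and the groups mix along the line.

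Neutrophil granule genes did not all follow the calprotectin genes from array to array. Camp read 2542, 1302 and 7702 on the cultured, 7922, 7725 and 8781 on the fresh and 150, 8809 and 10458 on the tumor-free arrays, so that its low point was tumor-free 1, where S100a8 was high. For Lcn2 (lipocalin), the signals were 1745, 413 and 5667 on the cultured, 6273, 5780 and 4679 on the fresh and 2712, 2706 and 2783 on the tumor-free arrays; both genes were picked after their values were seen, as the ends of the range that follows. Over the 9 arrays the correlations of the 8 secondary and tertiary granule genes with S100a8 ran from -0.10 for Camp (cathelicidin) to 0.52 for Lcn2, and with S100a9 from -0.074 for Camp to 0.65 for Lcn2. Since the calprotectin probe sets read at the top of the scale, how far their spread can be set beside that of these genes was not tested. Of the 8 secondary and tertiary granule genes 0 were called by limma in any comparison, with unadjusted p below 0.05 for 3 in fresh over tumor-free, 2 in cultured over fresh and 1 in cultured over tumor-free cells. The summed signal of these genes was 8644 to 35849 on cultured, 41025 to 43355 on fresh and 10644 to 29523 on tumor-free arrays. Of 4 primary granule genes, made early in neutrophil development, Mpo (myeloperoxidase, -3.68) and Prtn3 (a serine protease, -2.56) were called lower in cultured than in fresh cells, and the summed signal of the 4 was 91.6 to 213 on cultured, 752 to 2280 on fresh and 108 to 484 on tumor-free arrays.

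**Figure D4:**
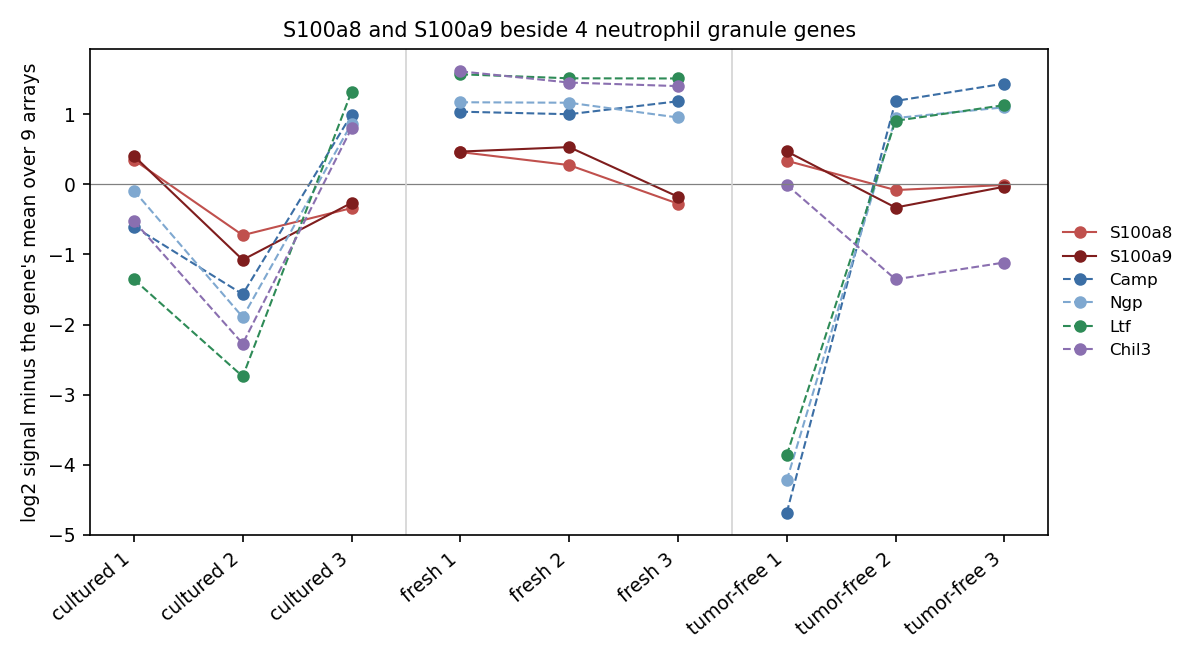
Log2 signal of S100a8, S100a9 and 4 granule genes on each array, as the difference from that gene's mean over 9 arrays (vertical axis, log2 units), with arrays from cultured through fresh to tumor-free. The granule genes are Camp, Ngp (neutrophilic granule protein), Ltf (lactoferrin) and Chil3 (a chitinase-like protein), picked after their values were seen; S100a8 and S100a9 (solid lines) run close to each other, and Camp, Ngp and Ltf (dashed) have their lowest points on tumor-free 1. S100a8 and S100a9 read at the top of the scale, so the heights of solid and dashed lines are not compared.

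Proteins through which calprotectin signals, and the myosin target of S100a4, were measured in part. Cd14, a co-receptor of the Toll-like receptor that S100a8 engages, read 7946, 7558 and 2891 on the cultured, 7779, 7766 and 8194 on the fresh and 7644, 2005 and 1287 on the tumor-free arrays, with a log2 fold change of 1.55 for fresh over tumor-free cells (limma adjusted p = 0.230). Bsg, a receptor for S100a9, averaged 945 in cultured, 304 in fresh and 278 in tumor-free cells, with cultured 1 at 1685 and cultured 3 at 247 (cultured over tumor-free 1.51, limma adjusted p = 0.289). Ager, the receptor for advanced glycation end products, stayed between group means of 22.6 and 24.4. Myh9, the myosin heavy chain that S100a4 binds, averaged 716 in cultured, 956 in fresh and 1453 in tumor-free cells, but a second probe set ran the other way, at 710, 478 and 371. Of the 12 partners and receptors listed, 9 had a probe set of their own, 8 passed the filter and Cd36, which did not, is not tested. With each gene read by its brightest probe set, limma called 0 of the 8 in any comparison (the dimmer Sugt1 probe set named above was called), with unadjusted p below 0.05 for 1 in fresh over tumor-free, 3 in cultured over fresh and 2 in cultured over tumor-free cells. Tlr4, Ly96 and Anxa11 were not analysed here.

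Counts over the 5 genes are set beside those of all probe sets tested. In fresh over tumor-free cells 0 of 5 were called, where 1.90% of all tested probe sets were, and 1 of 5 had non-overlapping groups, where 22.4% did. In cultured over fresh cells 0 of 5 were called (2.69% of all), and 2 of 5, S100a4 and S100a10, had non-overlapping groups (22.2% of all). In cultured over tumor-free cells 1 of 5 was called, against 1.23% of all, and 1 of 5 had non-overlapping groups, against 18.5%. At unadjusted p below 0.05 the counts were 1, 2 and 1 of 5 in these comparisons, against 16.7%, 16.3% and 14.1% of all probe sets. The median log2 fold change of the 5 genes was 0.24 for fresh over tumor-free, -0.68 for cultured over fresh and -0.35 for cultured over tumor-free cells, beside medians of 0.0093, 0.024 and 0.051 over all probe sets tested. All 5, each read by its brightest probe set, had fitted values below 0 in both comparisons of cultured cells, which share the cultured arrays. In fresh over tumor-free cells 4 were above 0. Of all probe sets tested, 47.7% were below 0 in cultured over fresh, 45.8% in cultured over tumor-free and 49.4% in fresh over tumor-free cells. The dimmer S100a10 probe set was above 0 in cultured over tumor-free cells, at 0.051. S100a4 in cultured over tumor-free cells stood at percentile 0.368 of all fitted changes, and S100a10 in cultured over fresh cells at percentile 3.65.

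**Figure D5:**
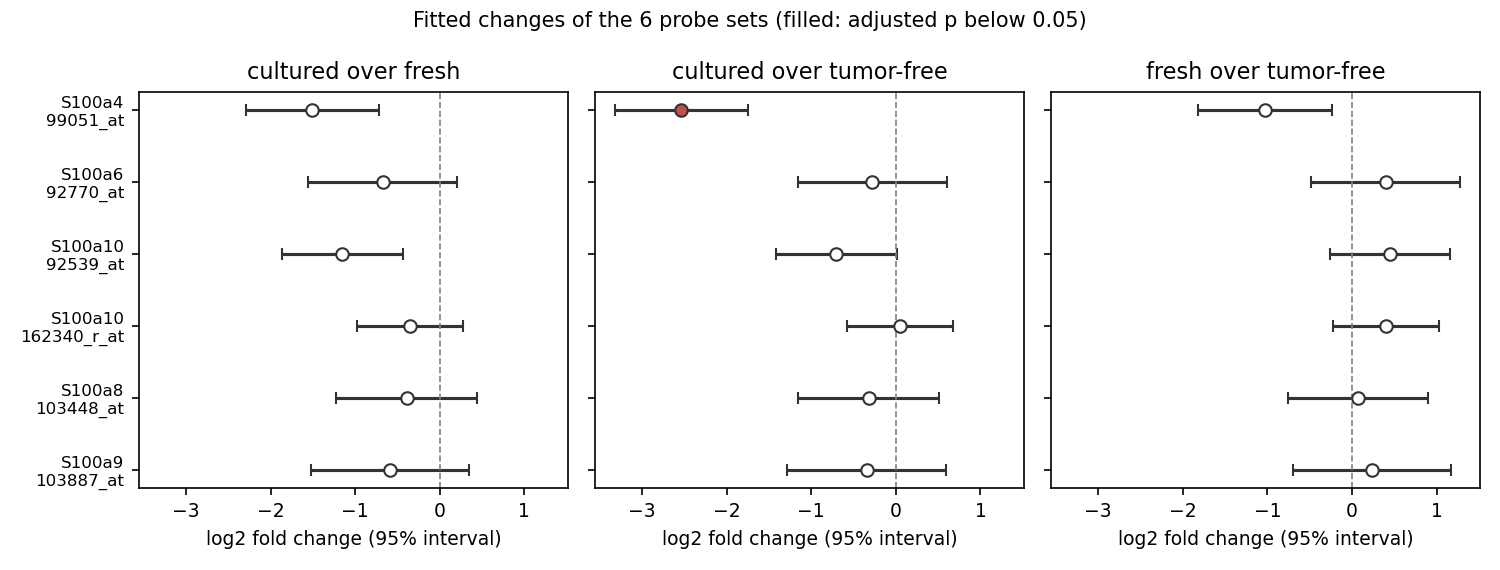
Fitted log2 fold changes (horizontal axis) of the 6 S100 probe sets (rows) in 3 comparisons, with 95% intervals from limma. The filled point marks the only call, S100a4 in cultured over tumor-free cells at -2.54, and the intervals of S100a6, S100a8 and S100a9 cross 0 in all 3 panels.

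Whether 2 S100 genes responded differently was tested on the within-array difference of their log2 signals, for 10 pairs in 3 comparisons, 30 tests in all. An exact two-sided permutation test of 3 against 3 arrays cannot give a p below 0.1, and 7 of the 30 reached 0.1. All 7 involved S100a4, so they share its signals and are not independent of each other. A p of 0.1 here means only that the differences of the 2 groups did not overlap. Among single probe sets, 22.4% in fresh over tumor-free and 18.5% in cultured over tumor-free cells had non-overlapping groups. The share over other pairs of genes was not computed. In fresh over tumor-free cells the S100a4 change minus that of the other gene was -1.43 log2 units for S100a6, -1.10 for S100a8, -1.27 for S100a9 and -1.48 for S100a10. In cultured over tumor-free cells it was -2.26 for S100a6, -2.22 for S100a8 and -1.83 for S100a10. After Benjamini-Hochberg adjustment over the 30 exact tests the lowest p was 0.429. Since no exact p can fall below 0.1, none could pass at 0.05, and this does not show that the genes responded alike.

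The remaining S100 family members showed no call. Of 11 listed, 8 had a probe set of their own and 6 passed the filter; S100a16 and S100g did not, and S100a7a, S100a11 and S100z were not analysed here. By limma 0 of the 6 were called in any comparison, with unadjusted p below 0.05 for 2 in fresh over tumor-free, 1 in cultured over fresh and 1 in cultured over tumor-free cells. S100a13, which takes part in release of growth factors without a signal peptide, averaged 341 ± 78.5 in cultured, 524 ± 56.1 in fresh and 567 ± 121 in tumor-free cells (SD, n = 3 each), with log2 fold changes of -0.63 for cultured over fresh (limma adjusted p = 0.251) and -0.73 for cultured over tumor-free cells (adjusted p = 0.232). It correlated with S100a10 at r = 0.889 over the 9 arrays, although another S100a13 probe set had a fitted change of 0.089 in cultured over tumor-free cells. S100a14, known from epithelia, averaged 472 in cultured, 536 in fresh and 372 in tumor-free cells, while its dimmer probe set ran the other way, at 25.8, 20.9 and 26.6. S100a1, a regulator of calcium handling in muscle, averaged 38.8, 70.3 and 36.1 in cultured, fresh and tumor-free cells and followed S100a6 at r = 0.921. Its other probe sets did not pass the filter and were not tested. In the same order they averaged 13.2, 15.8 and 6.86, and 6.54, 10.2 and 9.54. The dimmer S100a3, S100a5 and S100b had group means between 13.1 and 78.6, and fold changes between -0.52 and 0.97 on the log2 scale.

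The genes whose pattern over the 9 arrays was most like each S100 gene were taken by Pearson correlation of log2 signals. For S100a4 these were Thbd (thrombomodulin, r = 0.956), Sumo3 (a small ubiquitin-like modifier, 0.942) and Rgs3 (a regulator of G-protein signalling, 0.940). Thbd was itself called lower in cultured than in fresh cells (log2 fold change -2.06, limma adjusted p = 0.0193) and lower in cultured than in tumor-free cells (-2.58, adjusted p = 0.0120). It was dim, with means of 12.7 in cultured, near the offset of 7.83, 69.4 in fresh and 103 in tumor-free cells. For S100a6 they were Ccna2 (a cyclin, 0.947), Slfn2 (a Schlafen protein, 0.946) and Degs1 (a ceramide-forming desaturase, 0.938). After each other, S100a8 was most like Smcp (a sperm mitochondrial protein, 0.933) and Krt20 (an intestinal keratin, 0.926), and S100a9 most like Krt20 (0.947) and Ppef2 (a phosphatase, 0.946), all of them dim, with group means from 14.2 to 77.7. For S100a10 they were Socs3 (an inhibitor of cytokine signalling, 0.963), Tsc22d1 (a leucine zipper protein, 0.952) and Cyth2 (an exchange factor for ARF proteins, 0.926). Tsc22d1 was dim, at means of 29.5 in cultured, 99.4 in fresh and 74.3 in tumor-free cells. Socs3 averaged 220 in cultured, 872 in fresh and 387 in tumor-free cells and was called lower in cultured than in fresh cells (-1.97, limma adjusted p = 0.0222). For the dim S100a10 probe set the 3 most alike were Shkbp1, Slc6a9 and Spryd4, none of which is shared with the brighter one.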

How the data were processed

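RNA of sorted splenic CD11b+ cells was hybridized to 9 Affymetrix MG-U74Av2 arrays, grouped by sample title. The authors deposited 1 linear intensity per probe set and array, computed with MAS5 per the submitters' processing notes, whose settings are not stated there. Trimmed array means (2%) fell between 100.06 and 100.08, which shows scaling before deposit, and nothing was rescaled. Detection calls were not used: a dim signal may or may not exceed background, and precision is limited by the number of arrays.

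Signals were transformed to log2(signal + 7.83), the 20th percentile of all values. Leaving out 66 controls and the dimmest 30% kept 8695 probe sets. With limma 3.58.1 in R 4.3.3, a model of 3 group means with an intensity trend was fitted to all arrays, leaving 6 residual degrees of freedom. Tests were two-sided, p-values were adjusted by Benjamini-Hochberg across the 8695, and the threshold was 0.05. The fit was also run on simulated data with independent noise for each probe set and array. Such data lack the differences between whole arrays seen here, so no error rate is drawn from them.

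Names came from the platform annotation, which can be old: 10855 probe sets had 1 symbol, 396 several and 1237 were not listed; none is named from several. Where a gene had several probe sets, the one of highest mean log2 value stands for it. Named genes were the 5 S100 genes, all measured family members, partners and receptors, up to 3 called members of each other list per comparison, and the 3 genes most like each S100 gene; others are said to be picked after their values were seen. The members and lists were chosen with earlier results of these data known. Alternatives covered offset, normalization, filter, variance trend, array weights, replicate block, spike-in class, arrays left out and 2-group fits; the fits within each class were chosen after seeing the data. Correlations of same-numbered arrays' deviations ran from -0.200 to 0.259, so replicate numbers were not taken as pairs. Promoter sequences are RefSeq's for GRCm38.p6, in which 4 of the 5 genes had an entry.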

Additional observations from a re-analysis of the deposited data

How the results depend on the processing

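The S100a4 fall in cultured relative to tumor-free cells stayed called in 20 of 21 alternatives with a test, and its fold change stayed negative in all 23. With 1 array left out at a time its log2 fold change ran from -3.00 to -2.28; fitted on those 2 groups alone, 0 S100 genes were called. In cultured over fresh cells, where 0 were called, array weights called 4 (S100a4, S100a6, S100a9 and S100a10), removal of the 3 arrays that stood apart called 3 (S100a4, S100a6 and S100a10), and the spike-in class as a block called 1 (S100a4). Leaving out 1 array gave 0 to 2 there, and 1 throughout in cultured over tumor-free cells. The replicate block, whose numbers were not shown to pair the samples, also called 1 in cultured over fresh cells (S100a4). In fresh over tumor-free cells array weights called 1 (S100a4) and every other alternative called 0. Array weights and removal of those 3 arrays also raised the calls over all probe sets far more than 1.5 times. They gave 3174 and 2147 for fresh over tumor-free (165 in the reported fit), 1902 and 1374 for cultured over fresh (234), and 1389 and 1810 for cultured over tumor-free cells (107). The spike-in block gave 277, 556 and 177 in that order, the 2-group fit 14 for cultured over tumor-free, and leaving out 1 array 63 to 623, 74 to 489 and 24 to 529. With those 3 arrays removed, the cultured and fresh arrays left were all of the high spike-in class and the tumor-free arrays all of the low class. Group and class then cannot be told apart in comparisons with tumor-free cells. The cause of the differences in calls was not tested.

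Apart from the values within the spike-in classes, where S100a6 and S100a10 took opposite signs at values as far from 0 as -1.16 and 1.12, the changes of sign were in uncalled values near 0. S100a8 in fresh over tumor-free cells was -0.059 with the spike-in block and ran from -0.082 to 0.29 with 1 array left out. S100a9 in cultured over tumor-free cells ran from -0.71 to 0.035. The dim S100a10 probe set in cultured over tumor-free cells was -0.012 after quantile normalization, -0.018 after median centring, -0.079 with array weights, -0.056 without the 3 arrays, and ran from -0.050 to 0.25 with 1 array left out. With 3 arrays per group, changes several times the reported standard errors can go uncalled, as S100a4 did in cultured over fresh cells at -1.51 ± 0.36 (SE). Detection calls were not used, and the probe sets at the top of the scale may understate a difference.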

Other observations

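Among other proteins that bind calcium or join S100 proteins at membranes, Anxa4, an annexin of epithelial and secretory membranes, stood out. It read 503, 790 and 936 on the cultured arrays, against 223, 148 and 280 on the fresh and 191, 150 and 168 on the tumor-free arrays, with no overlap between cultured cells and either other group. It was called higher in cultured than in fresh cells (log2 fold change 1.74, limma adjusted p = 0.0147) and than in tumor-free cells (2.04, limma adjusted p = 0.0115), and ran against S100a4 over the 9 arrays at r = -0.835. None of the other 5 annexins listed (Anxa1, Anxa3, Anxa5, Anxa6 and Anxa7) was called in any comparison. Of 9 other EF-hand genes that passed the filter, Aif1, an actin-bundling protein of macrophages, was called lower in fresh than in tumor-free cells. It read 49.2, 37.4 and 6.98 on the fresh arrays, against 155, 342 and 307 on the tumor-free arrays (log2 fold change -2.96, limma adjusted p = 0.0261), and the other 8, among them Calm2, Sri, Lcp1 and Capn1, were not called in any comparison.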
